A study of Mus musculus with 18 samples.

Results

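Bnip3 and Bnip3l are 2 genes for receptors of mitophagy, the removal of mitochondria by autophagy. They were chosen by gene symbol among the 10225 genes that had a spot of their own on a cDNA microarray of mouse heart. Bnip3 (Entrez gene 12176, on chromosome 7 in the RefSeq table) had 2 spots and Bnip3l (Entrez gene 12177, on chromosome 14) had 4 spots, each a different cDNA clone. They are 6 of the 28704 spots on the array, and every spot of the pair had a value on all 18 arrays. No measured value was needed to find the spots. The pair, and the question of whether Bnip3l goes with the red-cell genes Alas2 and Slc4a1 rather than with Bnip3, were proposed with ratios of these arrays already known. Every level, difference and correlation below that rests on those ratios is therefore a description, and the p-values printed beside them are not independent support.

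Both proteins sit in the outer mitochondrial membrane and bind the LC3 and GABARAP proteins of the forming autophagosome, which ties a mitochondrion to the autophagy machinery. BNIP3 is a classic target of the hypoxia-inducible factor HIF-1 and is studied in heart muscle for its part in mitochondrial injury and turnover. BNIP3L, also called NIX, is best known for clearing mitochondria from reticulocytes as they mature into red cells. ALAS2 is the erythroid enzyme that starts heme synthesis, and SLC4A1 is band 3, the anion exchanger of the red-cell membrane.

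Hearts came from control mice and from mice exposed to hypoxia that was chronic and either constant (CCH) or intermittent (CIH); every condition was sampled at 1, 2 and 4 weeks. Each of the 9 groups had 2 arrays, so each condition had 6. An array held cDNA from the heart of a male mouse in the dye Cy5 and from the heart of a female mouse in Cy3, and both hearts belonged to the same group. Strain, age, oxygen level and the number of animals behind the 2 arrays of a group are not given in the sources used here, so the p-values cover only array-to-array spread, which may be technical. The measurement is the ratio of the 2 channels in log2 units, centred here on the array median, and a gene's ratio is the mean of its spots. The direction is not stated in the labels. Male over female is likely, because the first spot of the Y-linked gene Eif2s3y was positive on 17 of 17 arrays and the second on 16 of 18. Since the male heart was in Cy5 on every array, sex and dye cannot be told apart in the ratio itself. A ratio shows neither how abundant a transcript was nor in which sex it changed, and the heart markers could not be checked for their level. In whole tissue, fewer cells of a type and less RNA per cell cannot be told apart.

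Some arrays need care before the results. The title of CIH 1 week replicate 1 gives 1 week of CIH, while its source names give CCH for 2 weeks, and the title was followed. The title of control 2 weeks replicate 1 carries a code that begins with 1 and not with 2. Values were present for 12650 to 24512 spots per array, and the arrays of 4 weeks had 12650 to 17904. The spread of all ratios on an array (median absolute deviation) ran from 0.175 on control 2 weeks replicate 1 to 0.722 on CCH 4 weeks replicate 1. That widest array held the highest ratio of Bnip3l, Alas2 and Slc4a1. Their lowest ratios were on CIH 2 weeks replicate 2, where the spread was 0.624. The number of arrays limits the precision of every value.

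The promoters of Bnip3, a hypoxia-regulated receptor gene, and of Alas2, an erythroid gene, are printed because these genes took separate courses over the arrays. The sequences are from RefSeq (GRCm38.p6), run 5′ to 3′ on the strand of the gene, and cover 250 bases before to 50 bases after the gene start. In the Bnip3 promoter (chr7:138909457-138909756, minus strand) the capitals mark the core of the hypoxia response element, ACGTG or GCGTG on either strand. In the Alas2 promoter (chrX:150547167-150547466, plus strand) they mark the site letters of the erythroid GATA factors, AGATAA or TGATAA on either strand. Bnip3l and Slc4a1 are not in the table used.
Bnip3: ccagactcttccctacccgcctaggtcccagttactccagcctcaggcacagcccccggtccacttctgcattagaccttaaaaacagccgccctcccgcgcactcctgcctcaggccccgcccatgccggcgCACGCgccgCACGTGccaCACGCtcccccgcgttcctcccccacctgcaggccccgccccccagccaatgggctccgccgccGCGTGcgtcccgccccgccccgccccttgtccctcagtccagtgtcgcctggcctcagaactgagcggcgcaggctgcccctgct
Alas2: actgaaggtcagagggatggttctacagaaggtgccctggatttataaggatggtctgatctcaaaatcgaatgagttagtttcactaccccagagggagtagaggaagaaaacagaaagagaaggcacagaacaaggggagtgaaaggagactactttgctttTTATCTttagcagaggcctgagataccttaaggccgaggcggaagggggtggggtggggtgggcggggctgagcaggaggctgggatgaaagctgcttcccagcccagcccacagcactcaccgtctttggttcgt
The hypoxia core had 5 matches in the Bnip3 promoter, of which 2 overlap as the palindrome CACGTG, and the GATA letters had 0. In the Alas2 promoter the GATA letters had 1 match and the hypoxia core 0. Of all 32851 promoters of this length, 43.8% held the hypoxia core and 18.6% the GATA letters, so a match is common and only describes these windows.

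Bnip3l had its lowest ratios, as deposited, under intermittent hypoxia. Were the direction the opposite of the likely one, every sign would turn and these would be its highest male-to-female ratios. Its 6 control arrays ran from -0.27 to 0.76 with a median of 0.15, its 6 CCH arrays from -1.08 to 0.86 with a median of 0.16, and its 6 CIH arrays from -1.56 to -0.0050 with a median of -0.73. All 6 CIH arrays were below 0, and 5 of them lay below every control array. The conditions still overlapped, because CIH 1 week replicate 2 was higher than 2 of the controls and CCH 2 weeks replicate 1 was as low as the CIH arrays.

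At 1 week the Bnip3l ratios were close to 0 everywhere, with -0.27 and 0.11 in controls, 0.14 and 0.19 under CCH and -0.30 and -0.0050 under CIH. At 2 weeks the controls were at -0.10 and 0.73, the CCH arrays at -1.08 and 0.27 and the CIH arrays at -0.69 and -1.56. Both CIH arrays were lower than both controls at that time, while the CCH arrays lay on either side of 0. At 4 weeks the controls were at 0.18 and 0.76, the CCH arrays at 0.86 and -0.18 and the CIH arrays at -1.16 and -0.78. Both CIH arrays were again below both controls, and at this time they were also below both CCH arrays.

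Ordered by mean, CIH at 2 weeks (-1.12) and CIH at 4 weeks (-0.97) stood lowest. They were followed by CCH at 2 weeks (-0.40), CIH at 1 week (-0.15), controls at 1 week (-0.077) and CCH at 1 week (0.16). The highest were controls at 2 weeks (0.31), CCH at 4 weeks (0.34) and controls at 4 weeks (0.47). The arrays of neighbouring groups overlapped at each step of this order except that from controls at 1 week to CCH at 1 week, where the nearest arrays were at 0.11 and 0.14.

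Bnip3 stayed in a narrower range, from -0.42 to 0.69 over the 18 arrays, and its conditions overlapped throughout. Its controls were at 0.39 and 0.057 at 1 week, -0.12 and -0.42 at 2 weeks and 0.20 and 0.13 at 4 weeks. Under CCH it was at -0.082 and -0.26, then 0.018 and 0.16, then 0.46 and 0.35. Under CIH it was at -0.095 and -0.037, then 0.69 and -0.013, then 0.29 and -0.21. The CIH arrays of 2 and 4 weeks, which were the low arrays of Bnip3l, were thus split between above and below 0 for Bnip3. By group mean Bnip3 ran from -0.27 in controls at 2 weeks to 0.40 under CCH at 4 weeks, and each neighbouring pair of groups in that order overlapped.

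**Figure D1:**
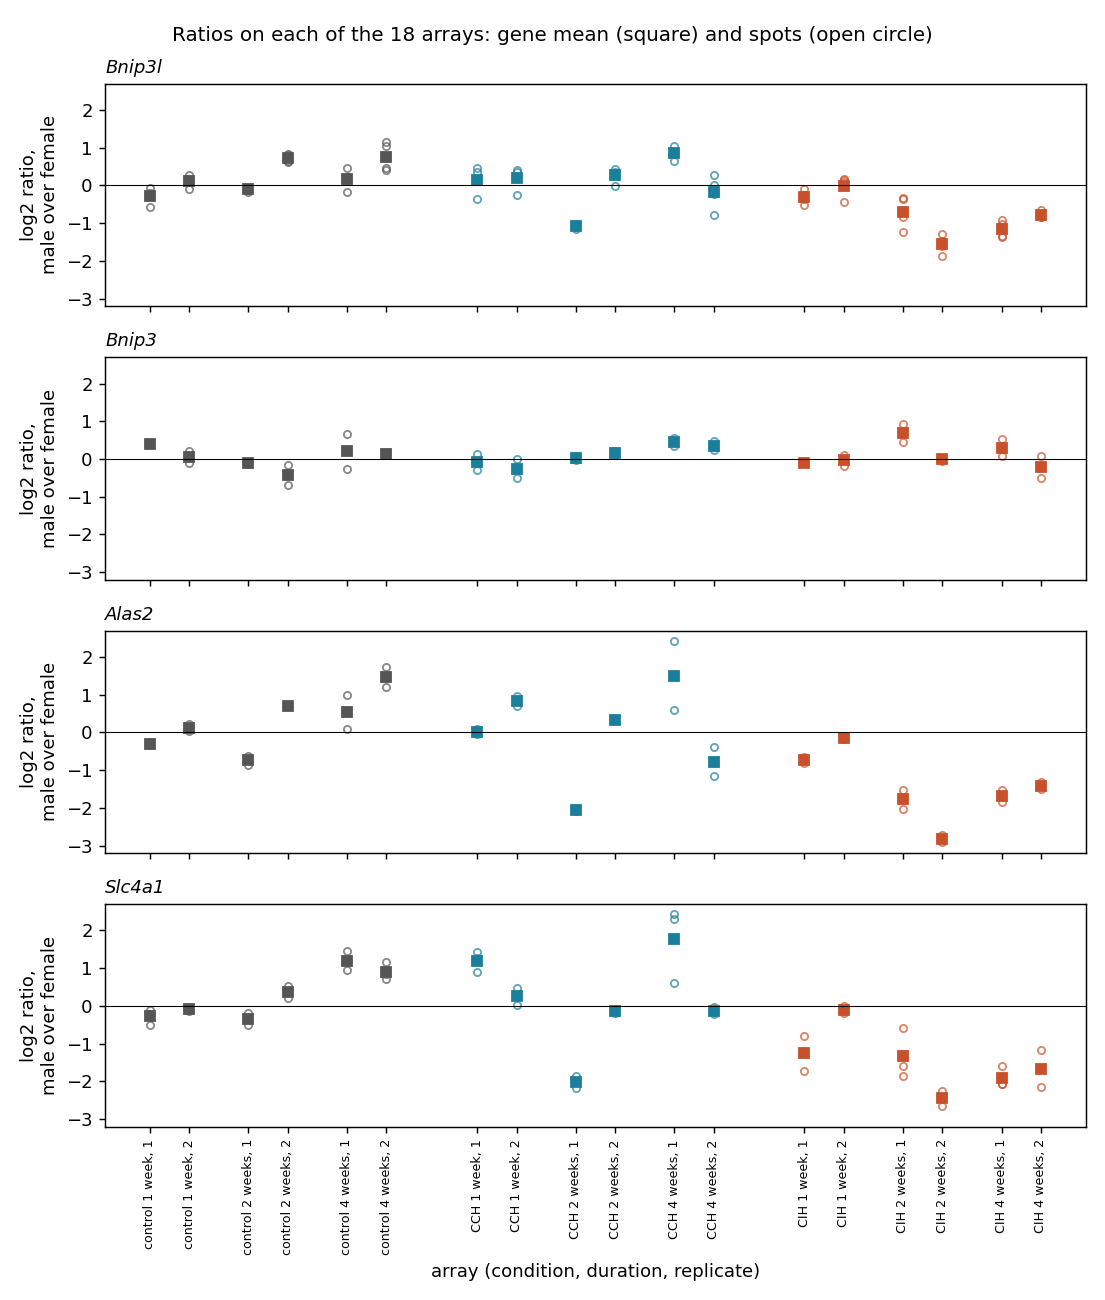
Centred log2 ratio (vertical axis, male over female) on each of the 18 arrays (horizontal axis) for Bnip3l, Bnip3, Alas2 and Slc4a1, with the gene mean as a square, each spot as an open circle, and control, CCH and CIH in grey, blue and orange. Bnip3l, Alas2 and Slc4a1 are low on the same arrays (CIH at 2 and 4 weeks and CCH 2 weeks replicate 1), while Bnip3 stays between -0.42 and 0.69. Slc4a1 is also low on CIH 1 week replicate 1 (-1.25), where Bnip3l is at -0.30.

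The spots show how well each gene was measured. The 4 spots of Bnip3l correlated with each other at r = 0.880 to 0.971 over 18 arrays (6 pairs). Within an array their SD had a median of 0.22, against an SD of 0.68 of the gene mean over arrays. The 2 spots of Bnip3 correlated at r = 0.432, with a median SD of 0.19 between spots and an SD of 0.28 over arrays. The SD between spots was thus similar for the 2 genes, but for Bnip3 it was larger beside the smaller spread over arrays.

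The comparison of conditions asks whether hypoxia changed the male-to-female ratio. For Bnip3l, CIH minus control was -0.99 ± 0.26 (SE, 6 against 6 arrays) over the 3 durations, which did not pass the threshold of 0.05 (limma adjusted p = 0.0729). Only 0.00974% of the 10272 units tested were called in that comparison (1 unit, Phtf1, named after its values were seen). That count was unstable: it was 169 with the replicate number as a block, 192 without centring, 115 with spot medians and up to 305 with 1 array left out. By duration the difference was -0.077 at 1 week (adjusted p = 1.00, 0.0% of units called), -1.44 at 2 weeks (adjusted p = 0.122, 0.00974% called) and -1.44 at 4 weeks (adjusted p = 0.190, 0.0% called), each ± 0.44 (SE, 2 against 2 arrays). The differences at 2 and 4 weeks were larger than their errors, and that at 1 week was not. All 4 spots gave a similar difference, from -1.01 to -0.94. Without CCH 2 weeks replicate 1, CCH 2 weeks replicate 2 or control 2 weeks replicate 1 the difference passed the test (limma adjusted p = 0.0285, 0.0281 and 0.0377). Over all arrays left out in turn it ran from -1.13 to -0.84, with adjusted p from 0.0281 to 0.307. Without CIH 1 week replicate 1, the array with conflicting labels, it was -0.94 (adjusted p = 0.244).

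Against 0, the Bnip3l ratio under CIH was -0.75 ± 0.18 (SE, n = 6 arrays), which is 0.595-fold male over female in the likely direction or 1.68-fold if that is turned, and it was below 0 on 6 of 6 arrays (limma adjusted p = 0.0182). In the same comparison 12.1% of the 10272 units were called, and 8.37% were called negative. The call was lost without CIH 1 week replicate 1 (-0.70, adjusted p = 0.0987), CIH 2 weeks replicate 2 (-0.60, adjusted p = 0.119) or CIH 4 weeks replicate 1 (-0.69, adjusted p = 0.106). In controls the ratio was 0.24 ± 0.18 (adjusted p = 0.729, with 0.00974% of units called) and under CCH it was 0.034 ± 0.18 (adjusted p = 0.916, with 10.8% called). The mean over all arrays was -0.16 ± 0.10 (adjusted p = 0.264), where 27.7% of units were called.

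Constant hypoxia gave smaller values. CCH minus control was -0.20 ± 0.26 for Bnip3l (limma adjusted p = 0.839), and 0.0% of units were called (0 units by limma, with 649 at an unadjusted p under 0.05). By duration it was 0.24 at 1 week, -0.72 at 2 weeks and -0.13 at 4 weeks, each ± 0.44 (adjusted p = 0.899, 0.521 and 0.914), with 0.0%, 0.0195% and 0.0% of units called. Without CCH 2 weeks replicate 1, the lowest CCH array, the difference over durations was 0.022. CCH minus CIH, in which the controls cancel, was 0.78 ± 0.26 for Bnip3l (limma adjusted p = 0.256), where 0.00974% of units were called (1 unit, again Phtf1). It passed the test only without CCH 2 weeks replicate 1 (1.01, adjusted p = 0.0448).

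Bnip3 differed little between the conditions. CCH minus control was 0.068 ± 0.15, CIH minus control 0.065 ± 0.15 and CCH minus CIH 0.0032 ± 0.15 (SE, limma adjusted p = 0.909, 0.834 and 0.998). At 2 weeks CIH minus control was 0.61 ± 0.25 (adjusted p = 0.183), from group means of 0.34 under CIH and -0.27 in controls. Without CIH 2 weeks replicate 1, at 0.69, it was 0.26 (limma adjusted p = 0.563). The test of whether a hypoxia effect changes with duration gave an adjusted p of 0.395 for Bnip3 and 0.456 for Bnip3l (limma F test), with 0.0% of units called (0 units, and 1332 at an unadjusted p under 0.05). A p above the threshold does not show that Bnip3 was unchanged.

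Whether the receptors responded differently was compared through the gap between them on each array, Bnip3l minus Bnip3, a measure chosen after the values were seen. The mean gap was 0.20 in controls, -0.074 under CCH and -0.85 under CIH. It was lower by 1.05 under CIH than in controls (exact permutation of conditions within duration, 216 relabellings, two-sided p = 0.0463, adjusted over 3 comparisons p = 0.0694). It was 0.78 higher under CCH than under CIH (exact p = 0.00926, the smallest these relabellings can give, adjusted p = 0.0278). CCH and control differed by -0.27 (exact p = 0.528). The gap between the receptors was thus widest under intermittent hypoxia.

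**Figure D2:**
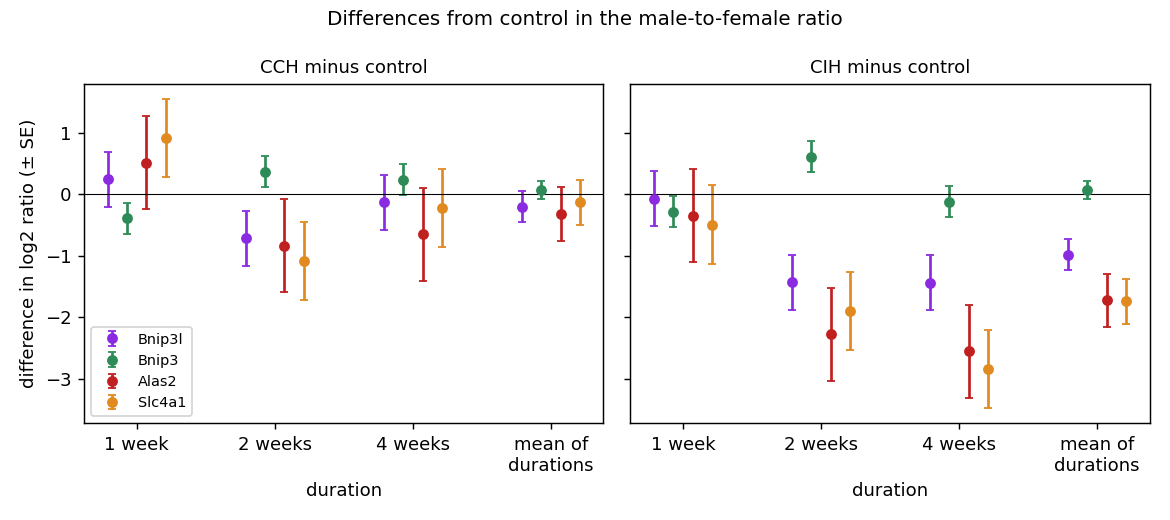
Difference from control in the log2 ratio (vertical axis, ± SE) at 1, 2 and 4 weeks and averaged over durations (horizontal axis), for CCH on the left and CIH on the right, with 1 colour per gene. Under CIH at 2 and 4 weeks Bnip3l lies at -1.44 on both occasions with Alas2 and Slc4a1 below it, and Bnip3 at 0.61 and -0.13.

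Alas2 and Slc4a1 had a shape similar to that of Bnip3l over a wider range. The match was not exact. On CIH 1 week replicate 1, the array with conflicting labels, Slc4a1 was at -1.25, Alas2 at -0.74 and Bnip3l at -0.30. Alas2, the gene of the heme synthesis enzyme, ran from -0.74 to 1.47 in controls (median 0.34), from -2.04 to 1.50 under CCH (median 0.18) and from -2.82 to -0.14 under CIH (median -1.55). Slc4a1, the band 3 gene, ran from -0.35 to 1.20 in controls (median 0.14), from -2.01 to 1.78 under CCH (median 0.062) and from -2.44 to -0.11 under CIH (median -1.50). Both genes were below 0 on 6 of 6 CIH arrays, as Bnip3l was. CIH minus control was -1.73 ± 0.44 for Alas2 (limma adjusted p = 0.0661) and -1.74 ± 0.37 for Slc4a1 (adjusted p = 0.0521). Neither passed the threshold.

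Across the 18 arrays Bnip3l followed these red-cell genes and not Bnip3. Pearson's r was 0.967 with Alas2 (Spearman's rho 0.961) and 0.918 with Slc4a1 (rho 0.907). Each of these values had a permutation p of 1e-05, the smallest that 100000 resamples can give, and an adjusted p of 2.5e-05 over 5 pairs. For comparison, Alas2 and Slc4a1 correlated with each other at r = 0.917, so Bnip3l was as close to either of them as they were to one another. The slope of Bnip3l was 0.54 on the log2 scale per unit of Alas2 and 0.51 per unit of Slc4a1.

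With Bnip3, the r of Bnip3l was -0.101 (rho -0.0485, permutation p = 0.689 and 0.851, adjusted p = 0.890 and 0.908). Bnip3 itself had an r of -0.0931 with Alas2 (rho -0.0774, adjusted permutation p = 0.890 and 0.908) and 0.0351 with Slc4a1 (rho 0.0299, adjusted permutation p = 0.890 and 0.908). The 2 Bnip3 spots correlated less with each other (r = 0.432) than those of Bnip3l. Their median SD within an array was similar (0.19 against 0.22), but Bnip3 varied less over arrays, so the r values of the 2 receptors are not equally precise. With Slc4a1, Bnip3 spot 26751 was at 0.316 and spot 3751 at -0.131. The r of Bnip3l with the mean of Alas2 and Slc4a1 was 0.963, which exceeded its r with Bnip3 by 1.06 (permutation of Bnip3l over arrays, two-sided p = 0.00035, 100000 resamples). That excess was 0.916 to 1.22 with any 1 array left out. The permutation shuffles Bnip3l against both partners at once, so its p does not test whether these correlations are equal. It also does not keep the 9 groups apart. For deviations from the group means the excess was 0.819 and did not pass (exact sign flips, p = 0.0898).

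**Figure D3:**
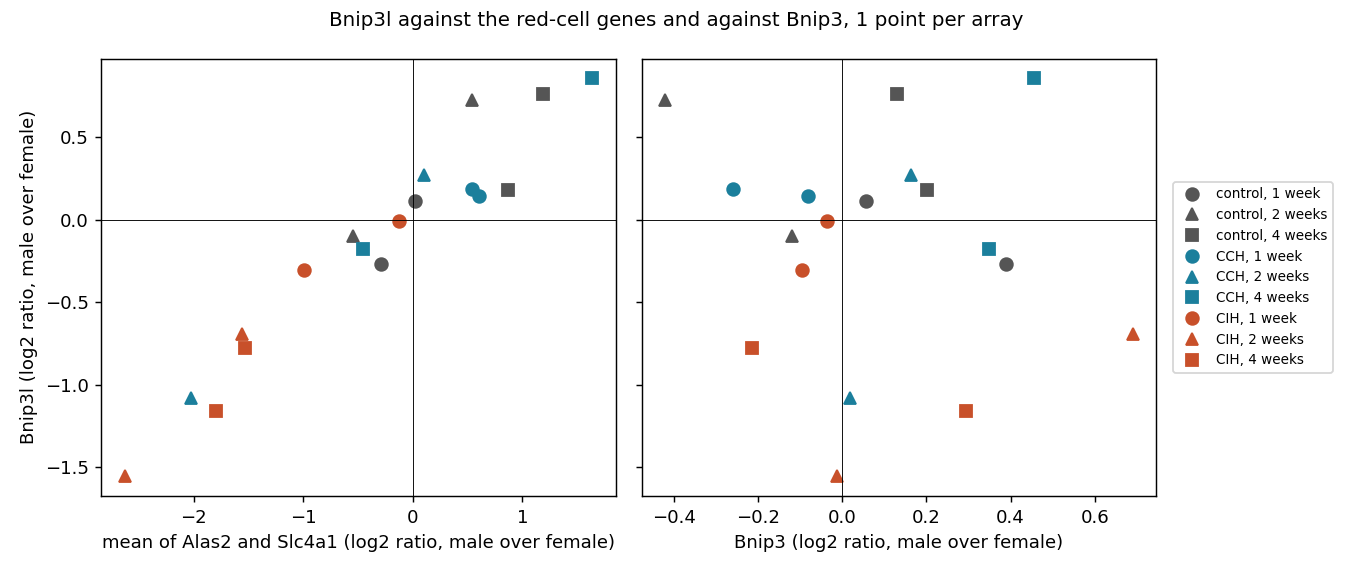
Log2 ratio of Bnip3l (vertical axis) against the mean log2 ratio of Alas2 and Slc4a1 on the left and against Bnip3 on the right, 1 point per array, with colour for condition and shape for duration. The points rise along a line on the left (r = 0.963) and show no line on the right (r = -0.101).

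The relation did not rest on a few arrays or on 1 condition. Without the 2 arrays farthest from the median of the red-cell gene, r was 0.946 with Alas2 and 0.879 with Slc4a1 over 16 arrays. Treated the same way, the r of Bnip3l with Bnip3 was 0.204, and that of Bnip3 was -0.205 with Alas2 and -0.181 with Slc4a1. Without any 1 array it stayed between 0.956 and 0.974 with Alas2 and between 0.900 and 0.936 with Slc4a1. Within the arrays of 1, 2 and 4 weeks (6 each), r with Alas2 was 0.851, 0.989 and 0.980 and with Slc4a1 0.772, 0.992 and 0.953. Within control, CCH and CIH arrays (6 each), it was 0.888, 0.969 and 0.954 with Alas2 and 0.626, 0.922 and 0.947 with Slc4a1. Of these values, the lowest was that with Slc4a1 in the control arrays.

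The relation was also present between the arrays of 1 group, where condition and duration are the same. For the 9 differences between a group's arrays, r was taken about 0, without subtracting the mean difference. With Alas2 this r was 0.962 (exact sign flips, 512 patterns, p = 0.00391, the smallest they can give). With Slc4a1 it was 0.843 (exact p = 0.0391). With Bnip3 it was 0.137 (exact p = 0.762). Each of the 4 Bnip3l spots alone had an r of 0.907 to 0.957 with Alas2, 0.788 to 0.935 with Slc4a1 and -0.222 to -0.0178 with Bnip3. Within the arrays of 1, 2 and 4 weeks the r of Bnip3l with Bnip3 was -0.554, -0.377 and 0.371, so it had no settled sign.

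With the mean of Alas2 and Slc4a1 as a covariate in the model, an alternative chosen after seeing the data, CIH minus control of Bnip3l was 0.080 (limma adjusted p = 0.951) in place of -0.99. CCH minus CIH was -0.14 (adjusted p = 0.999) in place of 0.78, and the CIH ratio against 0 was -0.086 (adjusted p = 0.757) in place of -0.75. The covariate comes from the same arrays and was already known to follow Bnip3l, so these values restate the correlation on the scale of the differences and test nothing further. Over all 10272 units it lowered the number at an unadjusted p under 0.05 in CIH minus control from 1307 to 308. The covariate itself was low under CIH, from -2.63 to -0.12, so it and the condition share part of their spread. The lower count therefore does not show how many differences go with red-cell transcripts, which was not tested.

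Among the 6702 genes with values on at least 16 arrays, the 5 most like Bnip3l were Isg20 (r = 0.972), which encodes an exonuclease induced by interferon, Alas2, the ubiquitin ligase gene Mkrn1 (0.961), the tRNA-processing gene Elac1 (0.957) and T2 (0.956). Only 40 genes (0.597%) reached an r of 0.9 with Bnip3l, and the median gene was at -0.0612. Slc4a1 ranked 16 and Bnip3 ranked 3567. Fech, which encodes the last enzyme of heme synthesis, was at 0.947, Bpgm, which sets the oxygen affinity of red cells, at 0.948 and the mitochondrial iron importer gene Slc25a37 at 0.878. The lowest r belonged to Wsb2 (-0.790), Ccsap (-0.784) and the kinesin light chain gene Klc1 (-0.775). These values share the same arrays and are given as a description.

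Bnip3 had other company. Its closest genes were Etfa (r = 0.907), a subunit of the flavoprotein that takes electrons from fatty acid oxidation, the triglyceride synthesis gene Dgat1 (0.869), Srprb (0.855), a subunit of the signal recognition particle receptor, Esrra (0.845), a nuclear receptor for mitochondrial energy genes, and the membrane-sorting ATPase gene Vps4a (0.845). Only 1 gene reached 0.9. The lowest were the DNA repair gene Parp2 (-0.803), the ribosomal protein gene Rps6 (-0.787) and the transcription factor gene Yy1 (-0.778).

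**Figure D4:**
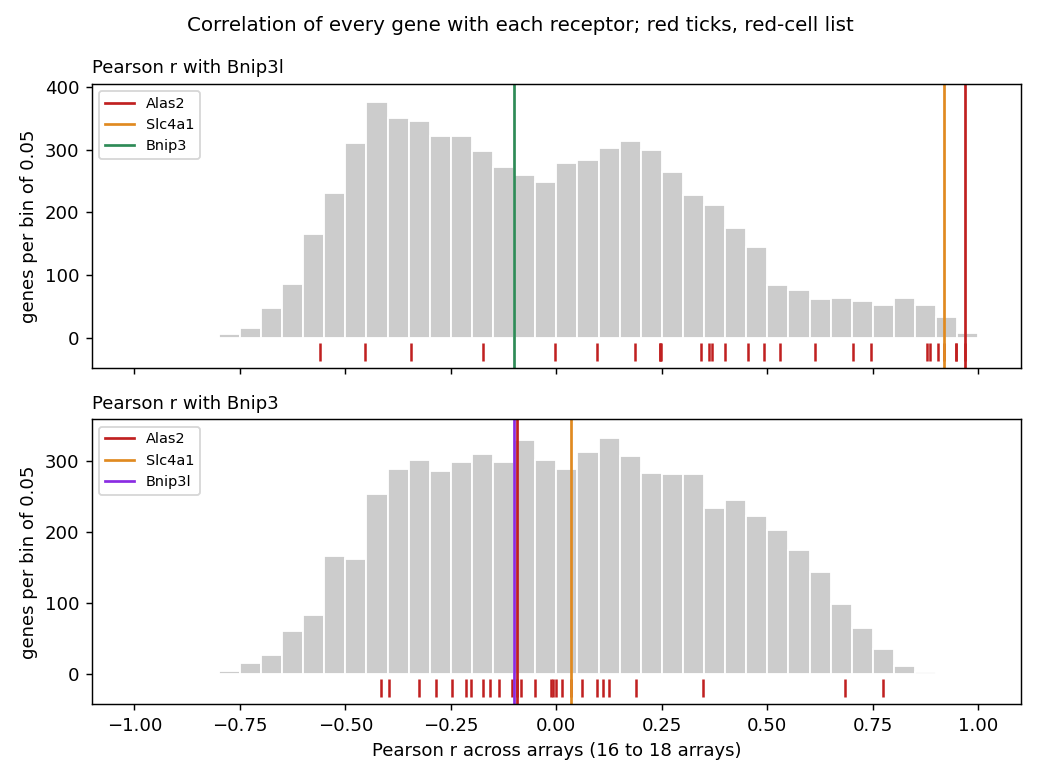
Number of genes (vertical axis) by their Pearson r across arrays (horizontal axis) with Bnip3l above and with Bnip3 below, over 6702 genes; coloured lines mark Alas2, Slc4a1 and the other receptor, and red ticks 27 genes of the red-cell list. With Bnip3l, Alas2 (0.967) and Slc4a1 (0.918) lie at the far right; with Bnip3 they lie near the middle (-0.0931 and 0.0351).

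The wider list of red-cell and reticulocyte markers held 50 genes, of which 37 had a spot and 30 could be tested. Of 27 with values on at least 16 arrays, 22 had a positive r with Bnip3l (median 0.399), beside a median of -0.0603 over all 6632 named genes tested and measured that widely. An r of at least 0.8 with Bnip3l was found for 7 of the 27 and for 153 of the 6632. The 22 and the 7 both include Alas2 and Slc4a1, which the question itself named beside Bnip3l, so that part restates it. The 7 were Alas2, Slc4a1, Fech, Bpgm, Slc25a37 and the embryonic globin genes Hba-x (0.886) and Hbb-bh1 (0.905). The rest of the list ran from Hbb-y (0.745) and Blvrb (0.702) downward. It included Klf1 (0.493), Hemgn (0.399), Rhag (0.246) and Car1 (0.096). Those with a negative r were the spectrin gene Sptb (-0.453), the water channel gene Aqp1 (-0.559) and the heme pathway genes Urod (-0.0022), Uros (-0.174) and Alad (-0.344). The adult globin genes could not be followed, since Hba-a2 was listed on 0 arrays and Hbb-b1 on 2. With Bnip3, 11 of the 27 were positive and the median was -0.0503.

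The red-cell list, like Bnip3l, had its lowest median under CIH, but its conditions overlapped. Its median per array ran from -0.16 to 0.44 in controls, from -0.61 to 0.45 under CCH and from -0.66 to 0.10 under CIH. The list did not follow Bnip3l on every array. On control 4 weeks replicate 2 the list was at -0.054 and Bnip3l at 0.76. On CIH 4 weeks replicate 2 the list was at -0.048 and Bnip3l at -0.78. In CIH minus control 22 of 30 genes were negative with a median of -0.28, and the values ran from -1.74 to 0.53. Of the 6945 named genes tested, 3322 were negative and the median was 0.013. None of the 30 passed the test in CIH minus control, where 0.00974% of all units were called, so that count says nothing particular about them. At an unadjusted p under 0.05, 10 were negative and 1 positive, beside 452 negative and 342 positive of the 6945. The 22 and the 10 again include Alas2 and Slc4a1. The smallest p-values were those of Blvrb, which encodes a reductase of heme breakdown (-0.94 ± 0.16, limma adjusted p = 0.0521), and of Slc4a1.

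The other genes of mitophagy mostly had negative correlations with Bnip3l. Of 38 receptors and adaptors, such as Fundc1, a receptor of hypoxic mitophagy, the Parkin pathway and the fission and fusion proteins, 27 were tested and 0 passed in CIH or CCH against control (limma), where 0.00974% and 0.0% of all units were called, so that 0 says nothing particular about them. At an unadjusted p under 0.05 there was 1 in CIH, the mitochondrial ubiquitin ligase gene Mul1 (-0.45 ± 0.21, adjusted p = 0.379), and 0 in CCH. Of the 6945 named genes, 452 negative and 342 positive reached that p in CIH, and 249 negative and 190 positive in CCH. Fundc1 was at 0.33 ± 0.16 under CIH (adjusted p = 0.403) and 0.28 ± 0.16 under CCH (adjusted p = 0.749). The median r of the 27 was -0.418 with Bnip3l, where 4 were positive, and 0.307 with Bnip3, where 21 were positive.

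In the core autophagy machinery 25 of 39 genes were tested and 0 passed in either comparison (limma), with 0.00974% of all units called in CIH and 0.0% in CCH. At an unadjusted p under 0.05 there was 1 in CCH, the LC3 gene Map1lc3a (-0.36 ± 0.16, adjusted p = 0.749), and 0 in CIH, beside 439 and 794 of the 6945 named genes. Rab7, for the fusion of autophagosomes with lysosomes, was at 0.35 ± 0.17 under CIH (adjusted p = 0.401), the LC3-conjugating enzyme gene Atg3 at 0.30 ± 0.15 (adjusted p = 0.416), and the initiating kinase gene Ulk1 at 0.21 ± 0.11 under CCH (adjusted p = 0.749). The median r over 24 genes was -0.174 with Bnip3l and 0.331 with Bnip3. Of the relatives in the Bcl2 family 9 of 25 were tested, with 0 past the test and 0 at an unadjusted p under 0.05 in both comparisons (limma), beside the same 794 and 439 of 6945. Bnip2 was at -0.19 ± 0.16 and the survival gene Mcl1 at 0.21 ± 0.15 under CIH, and the death-promoting Bid at -0.22 ± 0.14 and Bad at -0.14 ± 0.13 under CCH.

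Hypoxia-inducible genes were compared because both receptors are counted among them. Of 51 listed, 26 were tested and 0 passed (limma), with 1 under CIH and 0 under CCH at an unadjusted p under 0.05. Over all units 0.00974% and 0.0% were called, and 794 and 439 of the 6945 named genes reached that unadjusted p. The 1 was the glucose transporter gene Slc2a1, at -0.47 ± 0.14 under CIH (adjusted p = 0.123), with an r of 0.842 with Bnip3l and 0.0715 with Bnip3. Egln3, an oxygen sensor, was at 0.42 ± 0.20 under CCH (adjusted p = 0.749), and the pyruvate dehydrogenase kinase gene Pdk1 at 0.41 ± 0.21 under CIH (adjusted p = 0.417). Over 25 genes the median r was -0.319 with Bnip3l and 0.237 with Bnip3.

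Leukocyte and macrophage markers mostly had positive, though lower, correlations with Bnip3l. Of 14 tested of 23, 13 had a positive r with Bnip3l (median 0.204) and 2 with Bnip3 (median -0.340), beside 3021 and 3477 of the 6632 named genes. In CIH minus control 10 of the 14 were negative with a median of -0.16, and in CCH minus control 12 were, with a median of -0.21, beside 3322 and 3882 of the 6945. The complement gene C1qa was at -0.85 ± 0.25 (adjusted p = 0.109) and C1qb at -0.46 ± 0.17 (adjusted p = 0.280) under CIH, and the immune adaptor gene Tyrobp at -0.45 ± 0.16 under CCH (adjusted p = 0.749). Their r with Bnip3l was 0.509, 0.188 and 0.144. The cardiomyocyte list (9 tested of 25) had a median of 0.22 in CIH minus control, and its median r was -0.339 with Bnip3l and 0.391 with Bnip3. In CIH minus control 3 of these 9 were negative, beside 3322 of the 6945, and the values ran from -0.65 to 0.49. Pln, for a regulator of the calcium pump, was at 0.49 ± 0.27 under CIH (limma adjusted p = 0.444). Csrp3, for a muscle LIM protein, was at 0.24 ± 0.17 (adjusted p = 0.515). For endothelial and fibroblast genes (16 of 20) the median r was -0.228 with Bnip3l and 0.129 with Bnip3, and for skeletal muscle and lung genes (7 of 18) -0.251 and 0.250. No gene of these lists passed the test in CIH or CCH against control. Over all units 0.00974% and 0.0% were called there, so this says nothing particular about the lists. Their part in the ratios of Bnip3l and Bnip3 was not tested.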

How the data were processed

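The authors deposited, per the labels and the values, a log2 ratio of the 2 channels for every spot, scaled so that the linear ratios of an array have a mean of 1. Background correction, spot filter and normalization are not given in the sources used here. Empty cells were treated as missing. Symbols came from the platform annotation (18511 spots with 1 symbol, 937 with several, 9256 with none).

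Array medians were subtracted, and the spots of a gene were averaged. Units with a value in each of the 9 groups (10272, of which 6945 named genes) entered a model in R 4.3.3 with limma 3.58.1 (9 group means, eBayes, two-sided, Benjamini-Hochberg, threshold 0.05). The F test is approximate for units with gaps. The code was tested on simulated data. The genes, lists and tests were chosen with earlier results of these data known. The rule for named genes allowed the members, Alas2, Slc4a1, the 5 genes with the highest and the 3 with the lowest r for each member, the red-cell list, and the 2 smallest p-values of each list in CCH and in CIH against control; not all of these are described, and Phtf1, Acat1, Cd36 and Gabarapl1 were named after their values were seen. Alternatives were no centring, quantile normalization, a common spread, units on all arrays, spot medians, the replicate number as a block, regrouping by source names, and each array left out.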

Additional observations from a re-analysis of the deposited data

Results flagged for a closer look

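Each spot and gene mean was examined for an array far from the other 5 of its condition, in 24 groups of 6 arrays, of which about 5% would hold such an array by chance. There were 2. A Bnip3 spot was at 0.46 on CIH 2 weeks replicate 1, above the other 5 CIH arrays, and the other Bnip3 spot was also highest there. A Bnip3l spot was at -1.10 on CCH 2 weeks replicate 1, below the other 5 CCH arrays, and the other 3 Bnip3l spots, Alas2 and Slc4a1 were lowest among CCH arrays there too.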

How the results depend on the processing

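The r of Bnip3l with Alas2 and with Slc4a1 kept its sign and side of the threshold in all 26 alternatives each. The excess of r with the red-cell genes over r with Bnip3 did so in 27 of 28, and was 0.819 (exact p = 0.0898) for deviations from the group means. The r of Bnip3l with Bnip3 was 0.0768 with Bnip3 spot 26751 alone and 0.137 for deviations, and -0.259 to 0.0551 with an array left out. That of Bnip3 with Alas2 was 0.103 with that spot, 0.105 for deviations and -0.254 to 0.0758 with an array left out. That of Bnip3 with Slc4a1 was -0.0549 without centring, -0.0373 with quantile normalization, -0.131 with spot 3751 and -0.129 to 0.179 with an array left out. The Bnip3 difference CIH minus control was -0.022 with spot 26751 and -0.052 to 0.18 with an array left out. CCH minus CIH of Bnip3 was -0.0069 without centring, -0.012 with quantile normalization, -0.017 with a common spread, -0.027 regrouped by source names, -0.091 with the red-cell covariate, -0.055 with spot 3751 and -0.11 to 0.12 with an array left out. Bnip3 under CIH was -0.013 to 0.22, and CCH minus control of Bnip3l -0.43 to 0.022, with an array left out. With the red-cell covariate, Bnip3l was at 0.080 in CIH minus control and -0.14 in CCH minus CIH. Its CIH ratio lost the call with a common spread (-0.66, adjusted p = 0.0518), regrouped by source names (-0.70, adjusted p = 0.0779) and with spot 6394 alone (-0.59, adjusted p = 0.0555). The cause of these changes was not tested.

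The count of units called in CIH minus control, 1 as reported, was 192 without centring, 0 with a common spread, 109 over units measured on all arrays, 115 with spot medians, 0 with the red-cell covariate, 199 with each spot as a unit and 1 to 305 with an array left out. CCH minus CIH, with 1 unit as reported, had 0 with a common spread, the covariate or single spots, and 0 to 196 with an array left out. CCH minus control and the duration test had 0 to 1. The mean ratio of all arrays had 1981 to 3178. These ranges are for leaving out 1 array. With the replicate block the count in CIH minus control was 169, and no call of Bnip3 or Bnip3l changed. The replicate numbers come from letters that the labels do not tie to a litter or day. The replicates 1 of CCH at 1 and at 2 weeks carry no letter and took the number left, so the block rests partly on that choice. The differences between replicates correlated at -0.548 to 0.447 between groups (median -0.038), with 15 of 36 pairs over 0.1. The numbers thus showed no pairing common to all groups, and whether they pair some of the arrays was not tested.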

Other observations

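The genes nearest to Bnip3 drew attention to fatty acid use in heart muscle. A list of 32 such genes was chosen after these values were seen and holds Etfa, Dgat1 and Esrra, which prompted it, so its values are a description without a test and partly restate that observation. Of 26 tested, 24 had a positive r with Bnip3 (median 0.497), and 5 reached 0.8, with Etfa, Dgat1 and Esrra among them. Over 6632 named genes 3477 were positive, the median was 0.0266 and 14 reached 0.8. Acat1, for ketone and fatty acid breakdown, was at 0.833 and the fatty acid uptake gene Cd36 at 0.782. Lpl, for the lipase that frees fatty acids from lipoproteins, was at 0.503, and its CIH minus control at 0.64 ± 0.20 (limma adjusted p = 0.133). With Bnip3l 3 of the 26 were positive (median -0.357). The exception at the top was the short-chain acyl-CoA dehydrogenase gene Acads, at 0.811 with Bnip3l and 0.129 with Bnip3. Outside that list, Gabarapl1, a partner that mitophagy receptors bind, had an r of 0.818 with Bnip3 and 0.0624 with Bnip3l. It was the highest of the 24 core autophagy genes, whose r with Bnip3 ran down to -0.260 (median 0.331). The LC3 gene Map1lc3a was at -0.158 with Bnip3. The cardiac calcium regulator Pln had an r of 0.791 with Bnip3, the highest of the cardiomyocyte list, and -0.339 with Bnip3l. Phtf1, the unit called in CIH minus control (-1.64 ± 0.20, limma adjusted p = 0.00538), had an r of 0.889 with Bnip3l.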
